A study of Mus musculus with 3 samples.

Results

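The regions described here are stretches of mouse brain chromatin that carried an accessibility peak in the sciATACv1 library and in the sciATACv3 library but no peak in the sciATACv2 library. The peaks of the 3 libraries were merged wherever they shared at least 1 bp, and 11275 of the 825954 merged regions (1.37%) met this rule. They are called v1/v3-only regions below, and the names v1/v2-only, v2/v3-only, v1-only, v2-only and v3-only are used in the same way. The study profiled whole brain of C57BL6 mice by single-cell combinatorial indexed ATAC-seq, in which nuclei were tagmented in barcoded 96-well plates, pooled and amplified with a further index in a chip of 5184 nanowells. Each of sciATACv1, sciATACv2 and sciATACv3 was 1 library, and the labels give the same tissue, strain and protocol for all 3 and no treatment. What sets the versions apart, the number and age of the animals and the number of nuclei are not given in the labels.

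ATAC-seq uses a transposase that inserts sequencing adapters where DNA is not wrapped tightly in nucleosomes, so peaks mark open chromatin. In brain, broadly open sites are mainly promoters, many of them rich in CpG dinucleotides, whereas distal enhancers are often open in only some cell types. A peak list states where a caller found a peak and says nothing of how far a site without a peak lay below the caller's threshold.

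The regions were chosen by the presence and absence of peaks in these same lists, so their number is a description and carries no test. Each version has 1 library and therefore no replicate, and no p-value can be given between versions. The 95% intervals below are exact Clopper-Pearson intervals, which cover counting error only. Peak numbers were 622754 for v1, 850991 for v2 and 512023 for v3. Read depth is unknown. Promoters of genes fixed in lists of cell type markers gave a check of the tissue. All 11 promoter windows of the excitatory neuron list and all 10 of the striatal neuron list lay in a region with v1 and v3 peaks, against 1 of 11 windows of the hepatocyte list and 3 of 9 of the erythroid list. The lists did not separate throughout, since cerebellar neurons had 5 of 12 and skeletal muscle 4 of 7.

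Promoters were rare among the v1/v3-only regions, as among v1/v2-only and v2/v3-only regions. Those present are listed first because they tie individual regions to genes. A promoter window was the 300 bp from 250 bp before to 50 bp after an annotated transcription start. In all, 51 windows of 45 genes lay wholly inside a v1/v3-only region. Such windows lay in 45 of the 11275 v1/v3-only regions, 446 of 123048 v1/v2-only and 373 of 57244 v2/v3-only regions. They lay in 15129 of the 322222 regions of all 3 libraries. Of the 45 genes 17 were protein-coding and 28 were long non-coding RNAs. Long non-coding RNAs were 9520 of all 26794 genes with a window. They were 252 of 448 genes in v1/v2-only and 190 of 379 in v2/v3-only regions, so their large part was not particular to v1/v3-only regions. The sequences below are RefSeq promoter windows of build GRCm38.p6, 5′ to 3′ on the gene's strand, for 9 of the 17 protein-coding genes, picked after their values were seen. Capitals mark matches on either strand to an AP-1 site, a TATA box or a GC box, whose letters are given below with their counts. Ctla2a and Ctla2b, which encode small proteins resembling the propeptide of cysteine proteases, are shown because both promoters lay far from any v2 peak. Egfl7, Apold1, Adgrf5 and Lrg1 are shown for their known products. Egfl7 encodes a protein secreted by endothelial cells, Apold1 an endothelial apolipoprotein L domain protein, Adgrf5 an adhesion G protein-coupled receptor and Lrg1 a secreted glycoprotein. Cpa4, a carboxypeptidase, and Rab15, an endosomal GTPase, carry the AP-1 motif counted below, and Gm3512, a predicted gene, is the window richest in CpG.
Ctla2a, chr13:60936576-60936875, minus strand: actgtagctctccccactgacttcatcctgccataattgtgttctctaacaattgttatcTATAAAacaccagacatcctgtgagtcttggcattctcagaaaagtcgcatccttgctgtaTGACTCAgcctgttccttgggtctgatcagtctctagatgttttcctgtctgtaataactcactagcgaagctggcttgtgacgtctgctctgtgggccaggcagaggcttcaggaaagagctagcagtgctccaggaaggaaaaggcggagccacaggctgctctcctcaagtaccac
Ctla2b, chr13:60897398-60897697, minus strand: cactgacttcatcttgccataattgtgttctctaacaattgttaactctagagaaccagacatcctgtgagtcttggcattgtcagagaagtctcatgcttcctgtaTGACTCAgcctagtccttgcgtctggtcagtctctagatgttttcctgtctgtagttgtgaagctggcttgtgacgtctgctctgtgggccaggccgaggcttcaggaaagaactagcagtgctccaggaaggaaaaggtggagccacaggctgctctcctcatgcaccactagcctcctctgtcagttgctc
Egfl7, chr2:26583615-26583914, plus strand: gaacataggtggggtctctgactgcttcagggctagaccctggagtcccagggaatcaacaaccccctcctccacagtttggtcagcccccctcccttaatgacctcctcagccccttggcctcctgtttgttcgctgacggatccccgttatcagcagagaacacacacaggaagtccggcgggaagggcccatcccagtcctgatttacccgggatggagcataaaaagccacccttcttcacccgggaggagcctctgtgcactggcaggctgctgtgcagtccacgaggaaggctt
Apold1, chr6:134981751-134982050, plus strand: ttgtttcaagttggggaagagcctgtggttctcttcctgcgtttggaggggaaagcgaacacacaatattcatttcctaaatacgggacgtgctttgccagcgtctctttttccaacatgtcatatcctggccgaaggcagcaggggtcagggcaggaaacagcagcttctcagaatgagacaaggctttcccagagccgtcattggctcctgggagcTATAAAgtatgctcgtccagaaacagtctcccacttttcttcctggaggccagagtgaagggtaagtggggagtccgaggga
Adgrf5, chr17:43389216-43389515, plus strand: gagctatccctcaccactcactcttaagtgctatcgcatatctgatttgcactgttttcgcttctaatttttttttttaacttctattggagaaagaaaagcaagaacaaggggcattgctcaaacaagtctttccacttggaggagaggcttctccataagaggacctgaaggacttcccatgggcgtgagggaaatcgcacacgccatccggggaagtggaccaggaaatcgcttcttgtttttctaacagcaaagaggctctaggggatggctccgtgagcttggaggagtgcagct
Lrg1, chr17:56121897-56122196, minus strand: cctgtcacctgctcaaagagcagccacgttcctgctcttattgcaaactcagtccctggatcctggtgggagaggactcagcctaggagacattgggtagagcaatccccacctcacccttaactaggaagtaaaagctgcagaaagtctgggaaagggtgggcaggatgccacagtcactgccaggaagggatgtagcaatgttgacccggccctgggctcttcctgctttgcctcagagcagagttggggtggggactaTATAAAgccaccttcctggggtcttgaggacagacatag
Cpa4, chr6:30568119-30568418, plus strand: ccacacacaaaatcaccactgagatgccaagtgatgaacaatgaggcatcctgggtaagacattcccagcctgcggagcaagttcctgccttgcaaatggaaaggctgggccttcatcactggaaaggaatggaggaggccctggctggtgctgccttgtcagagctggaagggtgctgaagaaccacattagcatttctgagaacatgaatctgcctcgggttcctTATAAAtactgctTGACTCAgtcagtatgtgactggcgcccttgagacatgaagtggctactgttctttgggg
Rab15, chr12:76818325-76818624, minus strand: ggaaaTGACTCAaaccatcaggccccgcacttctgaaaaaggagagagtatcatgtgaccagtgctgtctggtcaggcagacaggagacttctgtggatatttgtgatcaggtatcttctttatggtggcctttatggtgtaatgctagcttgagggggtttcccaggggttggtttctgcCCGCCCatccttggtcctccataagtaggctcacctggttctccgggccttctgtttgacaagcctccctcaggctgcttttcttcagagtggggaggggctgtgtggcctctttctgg
Gm3512, chr14:7174539-7174838, minus strand: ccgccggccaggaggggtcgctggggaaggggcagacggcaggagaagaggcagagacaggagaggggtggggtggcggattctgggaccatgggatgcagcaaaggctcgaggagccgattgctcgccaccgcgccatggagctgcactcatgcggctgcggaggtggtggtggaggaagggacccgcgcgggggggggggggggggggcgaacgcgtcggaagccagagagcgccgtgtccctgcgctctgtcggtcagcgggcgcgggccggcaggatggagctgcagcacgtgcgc

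The region around this Egfl7 start, 1 of 3 annotated promoter windows of the gene, was 522 bp wide, with a peak of 500 bp in v1 and in v3, and the nearest v2 peak was 1299 bp away. At Apold1 the region was 979 bp wide, the v1 peak was 746 bp and the v3 peak 979 bp, and v2 came no closer than 1103 bp. At Adgrf5 the region was 775 bp wide and v2 was 6405 bp away. At these 3 sites the nearest v2 peak was thus farther off than the region was wide. At Lrg1 the region was 694 bp wide and v2 was 289 bp away, and at Slco1a5, an organic anion transporter gene, the values were 522 bp and 643 bp. At Trim5, which encodes a restriction factor against retroviruses, the region was 1174 bp wide with v2 26166 bp away. Ctla2a and Ctla2b are described below, and at Gm3512 v2 was 1111 bp away. The other protein-coding genes were Cpa4, Akap3, Pate7, Jhy, BC048562, Grb10, Rab15 and Fam50b, with v2 between 80 bp (Rab15) and 9198 bp (Pate7) away. Over all 45 regions with such a promoter the median distance to v2 was 1158 bp, with 15 within 500 bp and 10 beyond 5000 bp. For 7 of the 45 genes another annotated window lay in a region that v2 did call. They included Egfl7 (1 of 2 other windows), Adgrf5 (its 1 other window), Jhy, Grb10 and Rab15, so v2 lacked 1 start of these genes and not the gene's promoters as a whole.

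Windows in v1/v3-only regions were 51 of the 19497 windows lying in regions with v1 and v3 peaks, or 0.262% (0.195 to 0.344), whereas 3.38% (3.32 to 3.44) of all 333497 regions with v1 and v3 peaks lacked a v2 peak. Regions of no more than 1000 bp gave a smaller gap, with 39 of 832 windows (4.69%, 3.35 to 6.35) against 9999 of 111734 regions (8.95%, 8.78 to 9.12). Width was limited in this way after the values were seen. The median GC content of the windows was 47.0%, against 59.3% for windows in regions of all 3 libraries and 53.0% for all 32619 windows. Their median CpG ratio, the number of CpG dinucleotides over that expected from the C and G content, was 0.264, against 0.206 in v1/v2-only regions, 0.227 in v2/v3-only regions and 0.677 in regions of all 3 libraries. The windows were thus poorer in CpG than those of all 3 libraries and not poorer than those of the other 2 classes. Among regions no wider than 1000 bp the median CpG ratio was 0.280 over 39 windows in v1/v3-only regions. It was 0.289 over 793 windows in regions of all 3 libraries, so the medians were close at like width. The median GC content there was 47.3% and 52.7%, and 5 of the 39 and 144 of the 793 windows had a ratio above 0.6. With 1 window per gene and any width, the median ratios were 0.254 and 0.683. A ratio above 0.6 was reached by 5 of the 51 windows, all of them windows of Gm3512, whose GC content was 72.3% and CpG ratio 0.828. Gm3512 is one of a family of similar predicted genes, and how the authors treated reads that match several copies is not stated.

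**Figure D1:**
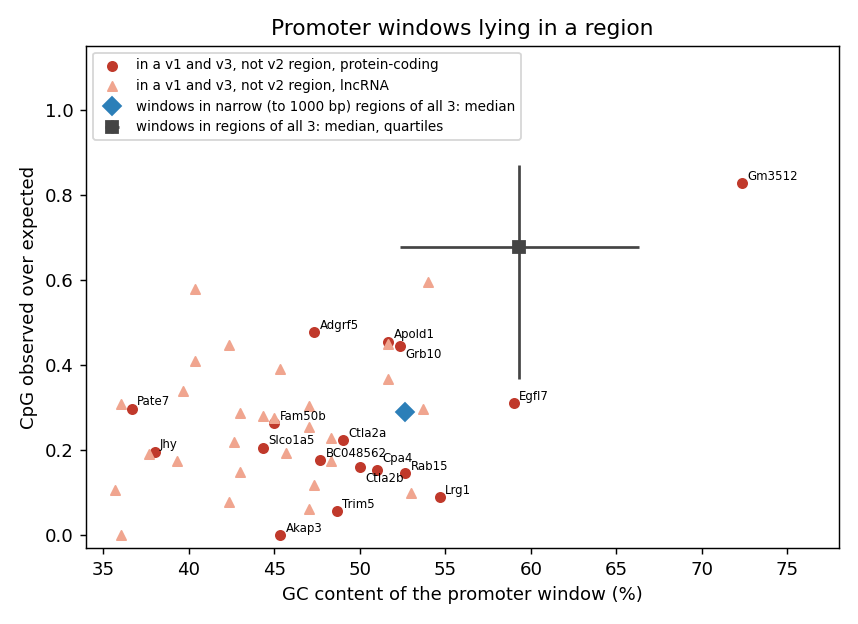
GC content (percent, x axis) and ratio of observed to expected CpG (y axis) of promoter windows in v1/v3-only regions, with 1 point per gene, circles for the 17 protein-coding and triangles for the 28 long non-coding RNA genes. The square and its lines are the median and quartiles of windows in regions of all 3 libraries (59.3% and 0.677), the diamond is their median in regions no wider than 1000 bp (ratio 0.289), and every gene except Gm3512 lies below a ratio of 0.6.

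Known promoter motifs were counted on both strands of these windows. The AP-1 motif TGANTCA, bound by Fos and Jun proteins, stood in 11 of the 45 genes (24.4%, 12.9 to 39.5), against 9.03% of the 26794 genes with a window, 6.70% of the 16200 genes with a window in regions of all 3 libraries, 8.48% in v1/v2-only regions and 10.8% in v2/v3-only regions. In regions no wider than 1000 bp it stood in 25.6% of the windows of v1/v3-only regions and 10.1% of those of all 3 libraries. The GC box GGGCGG, a site of Sp factors, stood in 2 of the 51 windows (3.92%), against 14.2% in v1/v2-only regions, 14.7% in v2/v3-only regions, 54.3% in regions of all 3 libraries and 35.9% of all windows. In regions no wider than 1000 bp it stood in 5.13% of the windows of v1/v3-only regions and 28.6% of those of all 3 libraries. The TATA box TATAAA stood in 9 windows (17.6%), against 13.7% of all windows, and the E-box CANNTG in 42 (82.4%), against 72.3%. Neither the cyclic AMP response element TGACGTCA nor the CTCF core motif stood in any of the 51 windows, and they stood in 1.80% and 0.0368% of all windows. The AP-1 motif, singled out after the values were seen, thus had a share whose counting interval lies above the share of all genes. An AP-1 match can share letters with an E-box beside it. Of the 17 protein-coding genes Cpa4, Rab15, Ctla2a and Ctla2b carried it, and the last 2 share sequence. A match describes the letters only.

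Ctla2a and Ctla2b shared a single long stretch without v2 peaks. It ran over 414733 bp of chromosome 13, from 60826519 to 61241251, and held 2 v1/v3-only regions, 4 v1-only regions and no v3-only region. The region at Ctla2a (60936414 to 60937357) held a v1 peak of 918 bp and a v3 peak of 500 bp, and its nearest v2 peak was 109895 bp away. The region at Ctla2b (60897313 to 60897812) was 500 bp in both libraries and 70794 bp from v2. The 2 transcription starts lie 39178 bp apart, and the longest run of bases the 2 promoter windows share is 36. The distances to v2 of these 2 regions ranked second and sixth of all 11275. The farthest region was on chromosome 7 (33982231 to 33982743), 126915 bp from v2 in a stretch of 379828 bp with 3 v1-only regions. Next after Ctla2a came regions on chromosome 13 at 50656387 to 50656889 (97991 bp, in Gm32038), 68258169 to 68258668 (75802 bp) and 61317069 to 61317573 (74658 bp, 34887 bp from the cathepsin gene Cts7).

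Most v1/v3-only regions were narrow single peaks that the 2 libraries placed at nearly the same position. Of the 11275 regions, 10990 held 1 v1 peak and 1 v3 peak. The median region width was 564 bp (quartiles 516 and 820, highest 3057), against 618 bp for v1/v2-only, 777 bp for v2/v3-only and 1365 bp for regions of all 3 libraries. In 66.1% of the single pairs both peaks were exactly 500 bp, the narrowest width in the lists. The peaks of a pair overlapped by a median of 485 bp (quartiles 457 and 498), and their midpoints lay a median of 40 bp apart, against 39 bp between v1 and v2 in v1/v2-only regions and 95 bp between v3 and v2 in v2/v3-only regions. Each peak covered at least 50% of the other in 87.1% of the pairs (86.4 to 87.7), against 89.7% in v1/v2-only and 77.5% in v2/v3-only regions. An overlap under 100 bp was found in 233 pairs (2.12%). Together the regions covered 7.91 Mb of the 834 Mb in all regions, and held 1.84% of the v1 peaks and 2.23% of the v3 peaks.

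Of the regions shared by 2 libraries, those of v1 and v3 were the least often missing from the other list. The shares were 3.38% without v2, 27.6% of the 445270 v1 and v2 regions without v3, and 15.1% of the 379466 v2 and v3 regions without v1. The v2 list was also the longest, with 850991 peaks, and the part of list length in these shares was not tested.

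Many v1/v3-only regions lay close to a v2 peak without overlapping it. The distance to the nearest v2 peak had a median of 553 bp (quartiles 188 and 1499), against 1309 bp from v1/v2-only regions to v3 and 925 bp from v2/v3-only regions to v1. A v2 peak lay within 500 bp of 5327 regions (47.2%), within 1000 bp of 65.4% and within 5000 bp of 92.5%. Only 76 regions (0.674%) were more than 20 kb away. The rule rests on an overlap of 1 bp, and near that limit 798 regions (7.08%) had v2 within 50 bp, 13 of them touching it, with a median width of 562 bp. Just on the other side, v2 reached at most 50 bp into 144 of the 322222 regions of all 3 libraries, whose median width was 1137 bp.

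**Figure D2:**
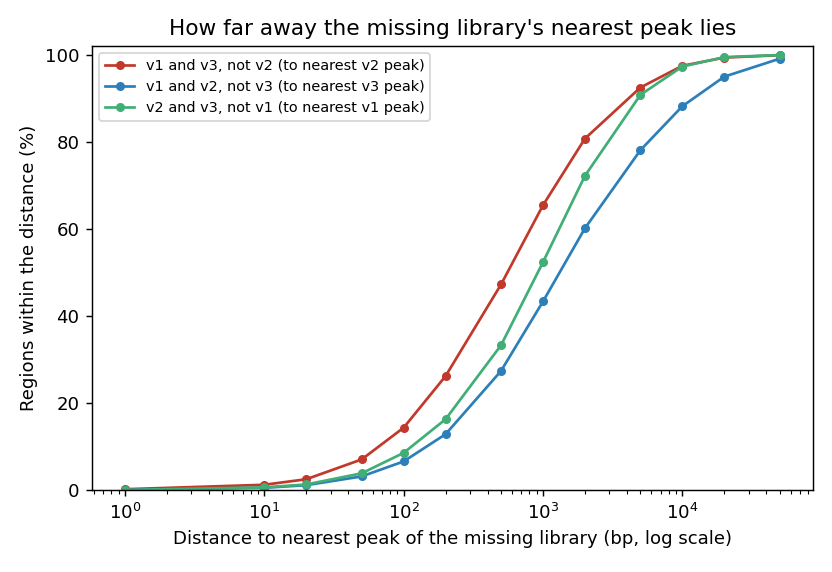
Distance from each region to the nearest peak of the library that lacks it (bp, log scale, x axis) as the cumulative percent of regions (y axis), for v1/v3-only, v1/v2-only and v2/v3-only regions. The v1/v3-only regions sit nearest to the missing library, with medians of 553, 1309 and 925 bp in that order.

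The midpoint of 6893 v1/v3-only regions (61.1%, 60.2 to 62.0) fell inside an annotated gene, against 61.7% of all regions. The share was thus close to that of all regions, above the 56.1% of v1/v2-only regions and below the 65.0% of v2/v3-only regions and the 71.5% of regions of all 3 libraries. When the other classes were weighted to the widths of the v1/v3-only regions their shares were 55.9%, 65.0% and 68.0% in the same order. A gene end was either boundary of the gene span, without regard to strand, so starts and far ends are pooled. Within 1 kb of a protein-coding gene's end lay 432 v1/v3-only regions (3.83%, 3.48 to 4.20). The other values were 5.09% for all regions, 2.52% for v1/v2-only, 3.61% for v2/v3-only and 8.39% for regions of all 3 libraries. At like width the last 3 values became 2.43%, 3.30% and 3.99%, so at like width the share was close to that of regions of all 3 libraries. Genes of at least 500 kb held 10.6% of the v1/v3-only regions and 10.4% of all regions.

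Position and distance to v2 went together. Of the 1619 v1/v3-only regions within 100 bp of a v2 peak, 76.5% lay in a gene. The share was 72.8% of 3708 at 101 to 500 bp, 63.2% of 2050 at 501 to 1000 bp, 45.7% of 3047 at 1001 to 5000 bp and 31.3% of 851 beyond 5000 bp. Region width changed little over these classes, with medians between 553 and 577 bp. The share at protein-coding gene ends was 5.31% in the nearest class and 2.35% in the farthest, and the share in genes of at least 500 kb was 14.4% in the nearest class and 17 of 851 in the farthest. The v1/v2-only regions gave nearly the same gene shares, with 73.1% within 500 bp of the missing library and 49.7% beyond, against 73.9% and 49.7% for v1/v3-only regions. The v2/v3-only regions had 75.4% and 59.7%.

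**Figure D3:**
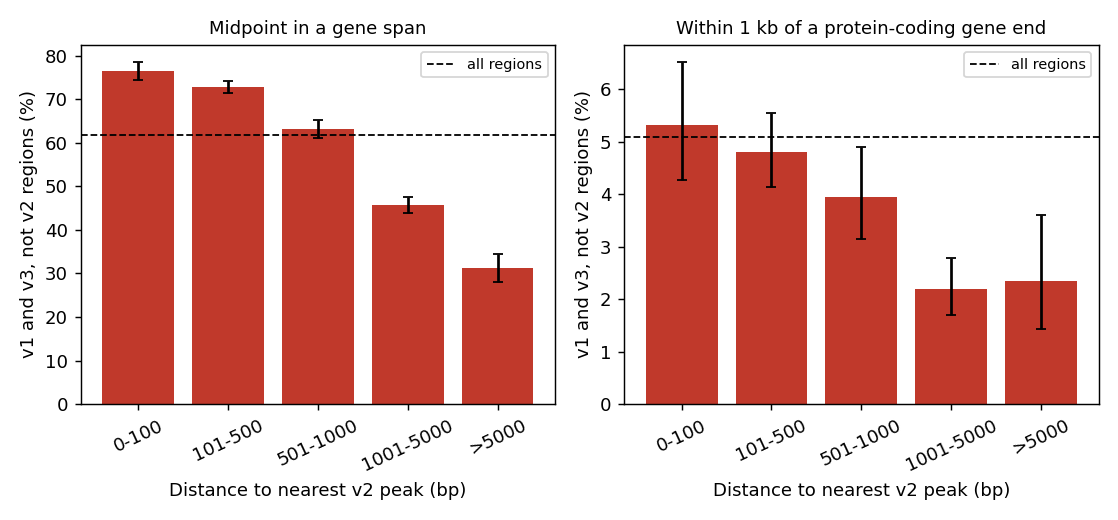
Percent of v1/v3-only regions (y axis) with the midpoint in a gene (left) and within 1 kb of a protein-coding gene end (right) by distance to the nearest v2 peak (bp, x axis), with exact 95% intervals as error bars and dashed lines at the 61.7% and 5.09% of all regions. The share in a gene is 76.5% in the nearest class and 31.3% in the farthest, and at gene ends 5.31% and 2.35%.

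On the X chromosome lay 296 v1/v3-only regions (2.63%, 2.34 to 2.94), against 2.93% of all regions, 1.76% of v1/v2-only, 2.86% of v2/v3-only and 6458 of 322222 regions of all 3 libraries. Of the regions with v1 and v3 peaks on the X, 4.38% (3.91 to 4.90) lacked v2. On the autosomes this share ran from 2.79% on chromosome 19 to 3.86% on chromosome 7, so the X was the highest of the 20 chromosomes, though its interval overlaps that of chromosome 7 (3.57 to 4.17). The X held 2.29% of the v1/v3-only regions within 100 bp of v2, 1.51% at 101 to 500 bp and 1.66% at 501 to 1000 bp. It held 3.77% at 1001 to 5000 bp and 6.35% beyond. Within and beyond 500 bp of the missing library the X shares were 1.75% and 3.41% for v1/v3-only regions. They were 1.80% and 3.39% for v2/v3-only and 1.18% and 1.97% for v1/v2-only regions.

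Gene windows, each a protein-coding gene with 5 kb on either side, were used to ask which genes held the v1/v3-only regions. Of 21631 genes 4233 (19.6%) had at least 1, 1304 had at least 2 and 32 had at least 10. The v1/v3-only regions were 1.36% of the 490738 regions in these windows. Edil3, which encodes an integrin-binding matrix protein, held 26 of 270 regions (9.63%), and its window had 220 regions with a v1 peak, 205 with v2 and 208 with v3. The 3 libraries thus called similar numbers there, although the v2 list was the longest (850991 peaks, against 622754 in v1 and 512023 in v3). Relative to list length, v2 called few regions in the Edil3 window. Ncam2, a neural adhesion molecule, was alike with 18 of 256 (7.03%) and 202, 201 and 237 regions in v1, v2 and v3. Erbb4, the neuregulin receptor of many interneurons, held 22 of 493 (4.46%), with 408, 375 and 205 regions.

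Other long genes were nearer to the share of all windows. Pcdh9, a protocadherin, held 20 of 490 (4.08%) and Auts2, a gene of neuronal development, 19 of 585 (3.25%). Lrp1b held 21 of 1004 (2.09%), Nrxn3, a presynaptic neurexin, 18 of 888 (2.03%), and Lsamp, an IgLON adhesion protein, 22 of 1151 (1.91%). Cntnap2, a contactin-associated protein, held 20 of 1064 (1.88%) and Ptprd, a receptor phosphatase, 17 of 1259 (1.35%), the last close to the 1.36% of all windows.

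Among the 6287 genes with at least 20 regions the median share was 0% and the 95th percentile 4.88%, and the highest shares were in small windows. Lca5l held 4 of 21 (19.0%), Zfand6 5 of 31 (16.1%), Myo3a, a myosin of hair cells and retina, 4 of 25 (16.0%) and Adgrf5 4 of 26 (15.4%). Vipr2, a receptor of vasoactive intestinal peptide, held 4 of 27 (14.8%), Slc16a12, a transporter, 3 of 22 (13.6%), Wdr72 3 of 24 (12.5%) and Anxa2, an annexin, 3 of 25, a share that Fgf9, a growth factor gene, equalled with 3 of 25. Each share rests on 3 to 5 regions. The Myo3a window had 21 v1, 12 v2 and 14 v3 regions, and the Vipr2 window 24, 17 and 16, so v1 called the most there. In the Adgrf5 window 15 regions had a v1 peak, 15 a v2 peak and 17 a v3 peak, and the other annotated Adgrf5 promoter window lay in a region that v2 called.

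**Figure D4:**
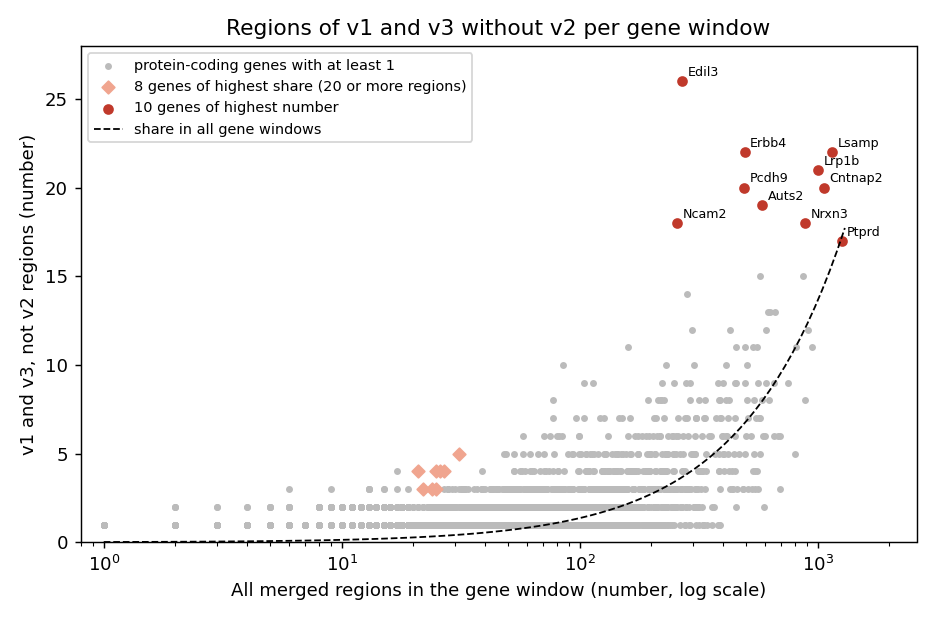
Number of v1/v3-only regions (y axis) against all merged regions (x axis, log scale) in each protein-coding gene window with at least 1 v1/v3-only region. Labelled circles are the 10 genes with most v1/v3-only regions, diamonds the 8 with the highest share, and the dashed line is the 1.36% of all windows, above which Edil3 with 26 of 270 stands farthest and near which Ptprd lies with 17 of 1259.

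Marker lists of brain cell types were read against the same 1.36%. The list of inhibitory neurons had the highest share, with 33 of 916 regions (3.60%, 2.49 to 5.02) in 6 of its 12 genes. Erbb4 gave 22 of these and Adarb2, an RNA-editing family member of interneurons, 7 of 277. Without these 2 genes the list held 4 of 146 (2.74%, 0.751 to 6.87), an interval that includes the share of all windows. The 4 were single regions at Dlx6, Gad2, Pvalb and Vip, and none lay at Dlx1, Dlx2, Gad1, Lhx6, Slc32a1 or Sst. The same list had 32.0% of its regions in v1/v2-only and 1.75% in v2/v3-only, against 14.9% and 6.93% of all merged regions. Without Erbb4 and Adarb2 these shares were 17.1% (11.4 to 24.2) and 2.05% (0.426 to 5.89). The first interval includes the 14.9%, and the second lies below the 6.93%.

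The list of dentate granule neurons held 13 of 396 (3.28%, 1.76 to 5.55) in 5 of 8 genes. Prox1, the transcription factor that defines these cells, held 4 of 39 (10.3%), and its window had 36 regions in v1, 15 in v2 and 14 in v3. Without Prox1 the list held 9 of 357 (2.52%, 1.16 to 4.73), an interval that includes 1.36%. Stxbp6, a SNARE-binding protein, held 4 of 107, and Maml2, a Notch coactivator, 3 of 183. Excitatory neurons had a lower share, with 7 of 997 (0.702%, 0.283 to 1.44) in 5 of 12 genes, an interval that just includes 1.36%. Of these 7, 3 were at Slc17a6, the vesicular glutamate transporter of subcortical neurons, out of 19 regions. The Slc17a6 window had 15 v1, 7 v2 and 12 v3 regions. It was the only gene of that list with more than 1. Cux2, Foxp2 and Rorb, factors of cortical layers, held none of 115, 278 and 103 regions.

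The other lists had intervals that include 1.36%. Oligodendrocyte precursors held 11 of 488 (2.25%), led by Lhfpl3 with 5 of 230. Striatal neurons held 15 of 687 (2.18%), led by Pde10a, a striatal phosphodiesterase, with 10 of 231 (4.33%). Skeletal muscle held 1.96%, cerebellar neurons 1.78%, microglia 1.69%, endothelial and mural cells 1.65% each, ependymal cells and housekeeping genes 1.64% each, and hepatocytes 1.61%. Immediate early genes held 1 of 71 (1.41%), oligodendrocytes 1.30%, astrocytes 3 of 357 (0.840%), lymphocytes 0.758%, and erythroid genes 0 of 63, where the exact interval reaches 5.69%. Of the lists of other tissues, muscle and hepatocytes lay within the range of the glia and vessel lists, and lymphocytes and erythroid genes below it. The leading gene of a list held 2 in Etv1 (of 58) and Sall1 (of 14), and 1 in Gja1, Mag, Dcn, Otx2, Egr1, Gapdh, Pax5, Hnf4a and Myod1. In all, 51 of the 187 list genes held at least 1 v1/v3-only region. The endothelial list held 5 of 303, with 2 at the VEGF receptor Kdr, and none of its 29 regions at gene ends was v1/v3-only. Of its 11 promoter windows 7 lay in regions with v1 and v3 peaks and none in a v1/v3-only region. The same absence held for the promoter windows of all 18 lists. Egfl7, Apold1 and Adgrf5, shown above, are outside the list and were picked after their values were seen.

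**Figure D5:**
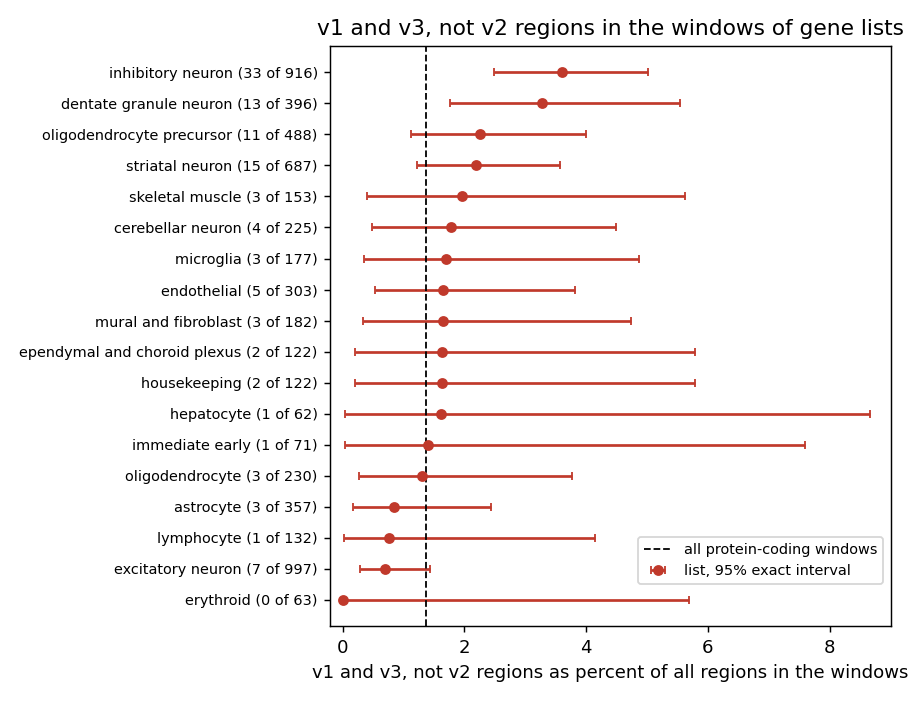
Share of regions that were v1/v3-only (percent, x axis) in the gene windows of 18 marker lists (y axis), with exact 95% intervals and a dashed line at the 1.36% of all protein-coding windows. Inhibitory neurons (3.60%) and dentate granule neurons (3.28%) have intervals above the line, which include it without Erbb4 and Adarb2 or without Prox1. The point of excitatory neurons (0.702%) lies below the line, with an interval that just includes it.

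Most v1/v3-only regions stood alone. Between neighbouring regions with a v2 peak, 10478 runs held 1 v1/v3-only region, 355 held 2, 22 held 3 and 4 held 4. The longest run held 5 on chromosome 4 (59650445 to 59657116) in E130308A19Rik. Runs of 4 lay in Dnah11, a dynein of motile cilia (chromosome 12, 118186773 to 118191497), in Nxph1, a neurexin ligand (chromosome 6, 8964242 to 8972858), 27126 bp from Map3k1 (chromosome 13, 111845396 to 111857393) and, in no annotated gene, 481993 bp from Zfp608 (chromosome 18, 55474585 to 55486111).

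At the scale of 1 Mb the regions were spread unevenly. Over 2421 bins with at least 100 regions the median share was 1.25%, the 95th percentile 2.95% and the highest 8.29%, and 99 bins held none. The highest bins are named after their values were seen. The bin of Sall1, a zinc finger factor (chromosome 8, 89 to 90 Mb), held 17 of 205 regions, with 134 regions in v1, 120 in v2 and 140 in v3. The bin of the cerebellar factors Zic1 and Zic4 (chromosome 9, 91 to 92 Mb) held 16 of 224 (7.14%), with 177, 118 and 71. The bin of Sp4, Sp8 and Dnah11 (chromosome 12, 118 to 119 Mb) held 17 of 239 (7.11%), and that of Meis1, a homeobox gene (chromosome 11, 18 to 19 Mb), 15 of 213 (7.04%). The fifth, at 43 to 44 Mb of chromosome 14, holds mostly predicted genes (8 of 126, 6.35%). In the first 4 bins between 18.1% and 30.8% of the regions shared by v1 and v3 lacked v2, against 3.38% of all such regions. The bins were ranked by their share of these same v1/v3-only regions, so high values here follow from the choice.

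The 5 widest v1/v3-only regions were each wide in 1 of the libraries only. The widest, in Enah, an actin regulator (chromosome 1, 181901618 to 181904674), was 3057 bp, with a v3 peak of 3032 bp and 2 v1 peaks no wider than 500 bp. Regions in Tnpo3 (2998 bp), Gab2 (2948 bp) and Tcf12 (2887 bp) likewise held a wide v3 peak and v1 peaks of 500 bp. In Dnah11 (118066692 to 118069423 on chromosome 12) the order was the reverse, with a v1 peak of 2732 bp and a v3 peak of 500 bp. In Tcf12, which encodes an E protein, v2 was only 8 bp away.

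At protein-coding gene ends the widest region lay at Polr2a, which encodes the largest subunit of RNA polymerase II (chromosome 11, 69731994 to 69734059, 2066 bp), with v2 243 bp away. Next were Lgr6, an R-spondin receptor (chromosome 1, 134981381 to 134983294, 1914 bp, v2 703 bp away), and Arl15 (chromosome 13, 114156070 to 114157951, 1882 bp, v2 270 bp away). The region at Sox2, a factor of neural progenitors (chromosome 3, 34652449 to 34654318), was 1870 bp wide and 1045 bp from v2, and it was the only 1 of the 4 regions in the Sox2 window without v2. Regions at Chn2 (chromosome 6, 54040870 to 54042574, 1705 bp) and Elapor1 (chromosome 3, 108454699 to 108456363, 1665 bp) had v2 84 bp and 358 bp away.

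Of 1005 annotated miRNA hairpins, 2 lay wholly in v1/v3-only regions, 47 in v1/v2-only, 23 in v2/v3-only and 484 in regions of all 3 libraries. These classes made up 1.37%, 14.9%, 6.93% and 39.0% of all regions in the same order. The mature sequences of the 2 hairpins, from RefSeq (GRCm38.p6), are shown with the seed, bases 2 to 8, in capitals. No seed is shared.
mmu-miR-8118: gACAAACAugacuaugcugaca
mmu-miR-7055-5p: uCAGUGGGuuaucugaguugg
mmu-miR-7055-3p: uUGCUACUuugauaccccaccag
Mir8118 lies within Rngtt, an mRNA-capping enzyme gene, in a region of 509 bp on chromosome 4 (33437786 to 33438294), 1016 bp from v2. Mir7055 lies within Slc17a7, the vesicular glutamate transporter of cortical neurons, in a region of 1286 bp on chromosome 7 (45172920 to 45174205), 301 bp from v2. That region is the only v1/v3-only region among the 11 of the Slc17a7 window.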

How the data were processed

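The authors deposited 1 peak list per library, 3 in all, as chromosome, start and end on build mm10, the same assembly as GRCm38. ArchR and MACS2 are named as tools per the submitters' processing notes. No aligner, calling threshold or number of nuclei is given there. The lists hold no score or read count, so depth is unknown. Peaks sharing at least 1 bp were merged with pandas 2.3.3 and numpy 2.4.6 in Python 3.11.15, and each region was assigned to a class by which libraries had called it. Gene spans, promoter windows and miRNAs came from RefSeq tables of GRCm38.p6, which are not complete. A region was in a gene by its midpoint, and in a gene window by overlap with the gene and 5 kb either side. Intervals at 95% are Clopper-Pearson (scipy 1.17.1). Merging, classing, distances to v2, gene positions and gene windows were tested on simulated peaks. Regions of 1 library are not replicates, so no p-value was computed. Named genes were the 10 with most v1/v3-only regions, the 8 with the highest share among genes with at least 20 regions (ties by number, then by name), the leading gene of each marker list and the 6 widest regions at gene ends. Genes, bins, promoters and motifs outside these were chosen after their values were seen. The regions, lists and rules were chosen with earlier results of these data known. Alternatives tried are given with their values in the closing section.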

Additional observations from a re-analysis of the deposited data

How the results depend on the processing

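The number of v1/v3-only regions was 11275 and their share of regions with v1 and v3 peaks 3.38%. Requiring no v2 peak within 500 bp left 5948 regions (1.78%), with 49.7% in a gene, 2.82% at a protein-coding gene end and 3.41% on the X, and list shares of 1.75% for inhibitory neurons, 0.728% for striatal neurons and 0% for ependymal and for immediate early genes, against 0.563% of all windows. A reciprocal overlap of 50% gave a share of 3.85%. Using only v2 peaks wider than 500 bp gave 96916 regions (29.0%), and using only v1 and v3 peaks wider than 500 bp gave 732 (0.434%). Counting v1 peaks in place of regions, chosen after seeing the data, gave 2.68%. Protein-coding genes alone held 53.8% of midpoints, and 500 bp around gene ends held 2.27%. The share of promoter windows, 0.262%, was 0.366% by the start base, 0.151% for protein-coding genes and 4.69% in regions no wider than 1000 bp, all chosen after seeing the data. With gene spans alone, the immediate early list held 0%, as did Mag, Dcn, Egr1, Gapdh and Myod1. Among the other values, 42 of group results and 35 of single genes moved by less than their counting interval or 1.5 times. The cause of these changes was not tested, beyond the fewer peaks or regions each setting leaves by construction. No paired analysis was possible because each version has 1 library. Absence of a v2 peak cannot be told apart from a peak below the caller's threshold, and library, animal and version cannot be told apart.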
